A study of Mus musculus with 8 samples.

Results

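The genes described here are 7 markers of CA2 pyramidal neurons, *Rgs14*, *Amigo2*, *Map3k15*, *Cacng5*, *Necab2*, *Pcp4* and *Ptpn5*, chosen by name as known markers of these cells. All 7 were in the table of 40659 gene identifiers, and all 7 were among the 17252 genes with enough counts to be tested. Whole hippocampi of 8 male C57BL/6JRj mice were profiled by polyA-RNA sequencing. The 4 hpCTL mice had received a recombinant adeno-associated virus (rAAV) with a control hairpin, and the 4 hp708 mice the same kind of rAAV with a hairpin that gives rise to miR-708-5p. Both were injected into the dorsal and ventral hippocampus. Surgery was done at about 7 to 8 weeks of age and dissection 4 weeks later, and by the labels the mice were then 12 to 13 weeks old. The hairpin lay in the 3'UTR of EGFP behind the human synapsin promoter, so that all 8 animals had surgery, virus and EGFP, and expression was directed to neurons in general, not to CA2 neurons in particular.

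CA2 is the short stretch of pyramidal cells between CA3 and CA1, known for its need in social memory, for its dense perineuronal nets and for synapses that resist long-term potentiation on their proximal dendrites. Its neurons are told from their neighbours by a set of signalling and calcium-handling genes. RGS14 is a scaffold of G protein and Ras signalling that holds back potentiation, STEP (*Ptpn5*) is a tyrosine phosphatase that acts on glutamate receptors and kinases, and PEP-19 (*Pcp4*) binds calmodulin. None of the genes is found in CA2 alone. *Ptpn5* and *Necab2*, for instance, are also expressed in striatum and in other hippocampal neurons, and in whole hippocampus fewer cells of a type and less RNA per cell cannot be told apart.

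A miRNA binds its targets mainly through its seed, bases 2 to 8 counted from the 5′ end, which pair with the complementary bases in a 3'UTR. The mature miRNA is shown because every search for target sites below rests on its seed (RefSeq, GRCm38.p6, capitals mark the seed).
mmu-miR-708-5p: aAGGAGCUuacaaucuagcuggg
Among the 7 genes, *Rgs14* was the one with a match, in the longest annotated 3'UTR of each gene. Its 3'UTR of 4031 bases held 2 matches, shown with capitals at the match, in GRCm39 on the plus strand. The site at chr13:55532851-55532873 pairs with bases 2 to 8, and the site at chr13:55533062-55533084 pairs with bases 2 to 7 and has an A opposite base 1.
*Rgs14*, site with AGCTCCT: ttaggaggcattgaaAGCTCCTc
*Rgs14*, site with GCTCCTA: atttgactgaaatggGCTCCTAg
Of the 20 protein-coding transcripts of *Rgs14* with a 3'UTR, 16 held at least 1 of these matches, the shortest 3'UTR being 729 bases long. The other 6 genes, with 3'UTRs of 352 (*Map3k15*) to 2930 bases (*Cacng5*), held neither AGCTCCT nor GCTCCTA on the transcribed strand. The share with a match was 14.3% of the 7 genes, beside 26.5% of the 14808 tested genes with a 3'UTR (3927 genes). A match of letters does not show that a site is used.

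Total counts ranged from 22606824 to 28462428 per library. The gene of the hairpin's miRNA, Mir708, had 0 counts in each of the 8 libraries, which were made from polyadenylated RNA, so the count of this gene gives no check of the group labels. The labels put animal 1602 in hp708 (hp708 replicate 1), whereas a table of qPCR values published with the study lists this animal under hpCTL. It was kept as labelled. Values without it are given for a part of the genes and marker lists. Mitochondrial genes took 3.49 to 4.07% of the counts and *Malat1* with *Meg3* 0.312 to 0.483%. The 4 markers of excitatory neurons *Neurod6*, *Neurod2*, *Slc17a7* and *Camk2a* summed to between 4262 and 6016 CPM (counts scaled to 1000000 per library), so that markers of hippocampal neurons were present in every library.

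All 7 CA2 genes were found in every library, with 56 counts (*Map3k15*, hp708 replicate 3) to 4609 counts (*Ptpn5*, hp708 replicate 4). Levels are comparable between genes per kilobase of exon. On this scale the mean over the 8 libraries was highest for *Pcp4*, with 49.9 ± 9.93 CPM per kb (SD, n = 8). *Necab2* followed with 32.6 ± 5.23 CPM per kb, then *Ptpn5* with 20.9 ± 2.96 CPM per kb. *Rgs14* reached 12.4 ± 2.50 and *Amigo2* 9.63 ± 1.34 CPM per kb. *Cacng5* with 2.22 ± 1.08 and *Map3k15* with 0.759 ± 0.151 CPM per kb were the lowest. Among all tested genes *Pcp4* stood at percentile 96.6 of level per length and *Map3k15* at percentile 21.0. The ranges over libraries overlapped between *Pcp4* and *Necab2*, between *Necab2* and *Ptpn5*, and between *Rgs14* and *Amigo2*. Within libraries, *Pcp4* was above *Necab2* in 8 of 8, *Necab2* above *Ptpn5* in 7 of 8, and *Rgs14* above *Amigo2* in 8 of 8. The ranges of *Ptpn5* and *Rgs14*, of *Amigo2* and *Cacng5*, and of *Cacng5* and *Map3k15* did not overlap. The length used is that of all annotated exons, which for *Rgs14* comes from 44 transcripts (8749 bases) and for *Map3k15* from 1 transcript (4348 bases).

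The question of the comparison is whether the CA2 genes differed between hippocampi with and without the miR-708-5p hairpin. They did not pass the test. In the quasi-likelihood test of edgeR, fitted with 3 surrogate variables, 0 of the 7 genes had a Benjamini-Hochberg adjusted p (FDR) below 0.05, as did 0.0058% of all tested genes (1 of 17252). At an unadjusted p below 0.05, 1 of the 7 genes (*Cacng5*) was higher in hp708, beside 2.82% of all tested genes, and 0 of the 7 were lower, beside 4.87%. DESeq2 with the same surrogate variables gave 0 of 7 genes at an FDR below 0.05, beside 0.556% of all tested genes, and 1 of 7 at an unadjusted p below 0.05 in either direction, beside 5.02%. The fitted log2 fold change was above 0 for 5 genes and below 0 for 2, with a median of 0.09 beside -0.01 over all tested genes. For 0 of the 7 genes were the CPM of the groups free of overlap, beside 1.51% of all tested genes. A single gene of 7 is no result about the set.

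**Figure D1:**
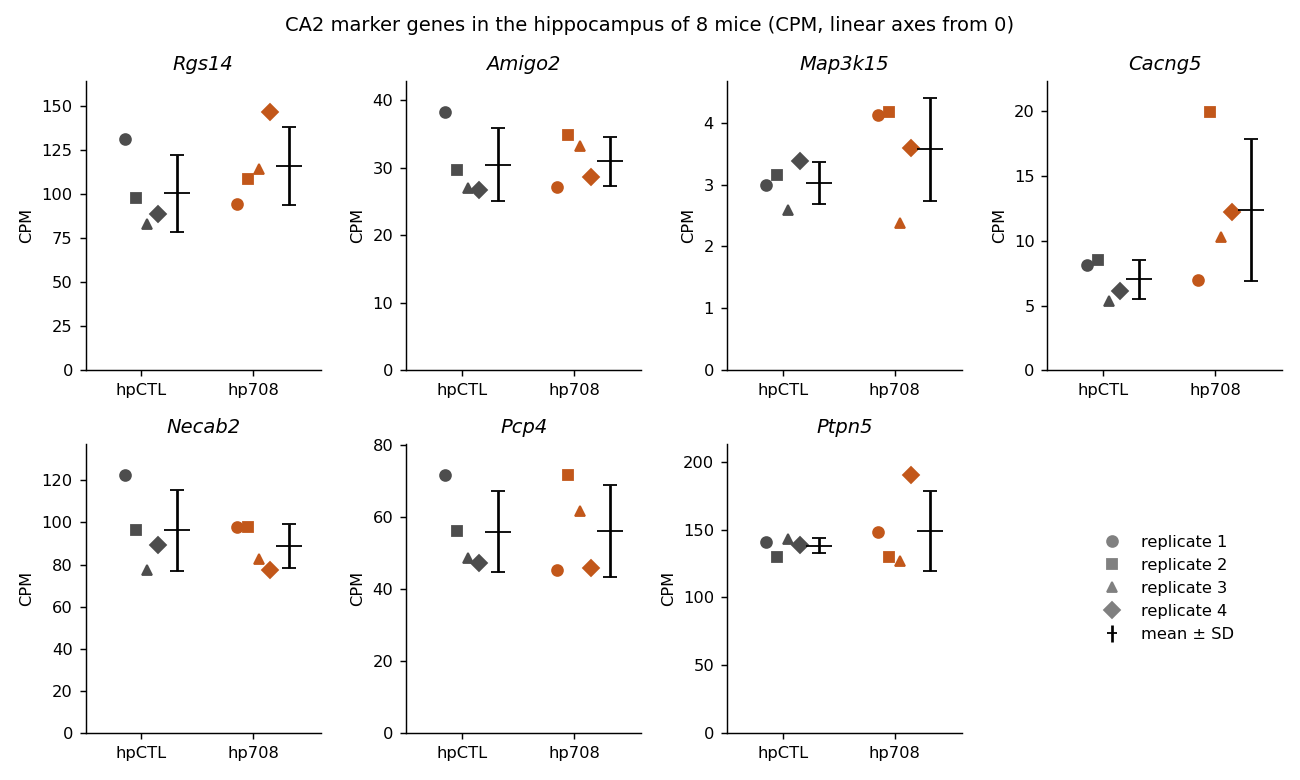
CPM of the 7 CA2 marker genes in 4 hpCTL and 4 hp708 libraries, with a linear axis from 0 for each gene; symbols mark replicates, and the bar beside the points is the mean with its SD. The groups overlap for every gene, and for *Cacng5* 3 of the 4 hp708 libraries, at 10.3 to 19.96 CPM, lie above all hpCTL libraries, which reach 8.48 CPM.

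*Rgs14* (ENSMUSG00000052087, GRCm39 chr13:55517258-55535857, plus strand) was at 131, 97.9, 83.2 and 88.9 CPM in hpCTL replicates 1 to 4. In hp708 replicates 1 to 4 it was at 94.4, 108, 114 and 147 CPM. The hp708 mean was the higher of the pair, with hpCTL replicate 1 above 3 of the 4 hp708 libraries. Fitted over all libraries, the log2 fold change was 0.21 ± 0.13 (SE; FDR = 0.751, edgeR quasi-likelihood test), a difference not larger than the spread between animals. *Rgs14*, the gene with the seed matches shown above, was therefore not measurably lower in hp708. Without hp708 replicate 1 its log2 fold change was 0.43 ± 0.12 (FDR = 0.186), and without hpCTL replicate 1 it was 0.34 ± 0.12 (FDR = 0.425). Leaving out hpCTL replicate 3 gave 0.09 and leaving out hp708 replicate 4 gave 0.14, with 0.19 to 0.30 without any other library. Without surrogate variables the lowest value with a library left out was 0.08, without hp708 replicate 4.

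*Ptpn5* (ENSMUSG00000030854, chr7:46727541-46783690, minus strand), which encodes the striatum-enriched phosphatase STEP, was the steadiest of the genes in hpCTL. Its hpCTL levels were 141, 130, 143 and 138 CPM, a coefficient of variation of 4.20%. Its hp708 levels were 148, 130, 127 and 190 CPM, with a coefficient of variation of 19.7%. The hp708 libraries lay on both sides of the hpCTL range, 2 above and 2 below it, and the highest value was that of hp708 replicate 4. Between groups the log2 fold change was 0.09 ± 0.13 (SE; FDR = 0.911). It was 0.00 without hp708 replicate 4 and 0.06 without hpCTL replicate 2. It was 0.25 without hp708 replicate 3, 0.23 without hp708 replicate 2, 0.21 without hpCTL replicate 1, 0.17 without hp708 replicate 1 and 0.15 without hpCTL replicate 4, with FDR of 0.218 or more. Over all tested genes the median coefficient of variation was 12.0% in hpCTL and 12.6% in hp708, and the difference in spread was not tested.

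*Map3k15* (ENSMUSG00000031303, chrX:158771429-158906347, plus strand) encodes ASK3, a kinase of the stress-activated MAP kinase pathway. It was the lowest of the genes, at 3.00, 3.15, 2.58 and 3.38 CPM in hpCTL and 4.13, 4.17, 2.39 and 3.59 CPM in hp708. The hp708 libraries held its 3 highest values and also its lowest one. The log2 fold change was 0.21 ± 0.18 (SE; FDR = 0.830), resting on 56 to 114 counts per library. Without hp708 replicate 3, its lowest library, the groups no longer overlapped and the log2 fold change was 0.35 (FDR = 0.663). Its exons share 716 bases, 16.5% of their length, with *Pdha1* on the opposite strand. *Pdha1*, a subunit of pyruvate dehydrogenase, was at 218 to 249 CPM, so reads of *Pdha1* could add to the *Map3k15* count if strand was not used, which is not given in the sources used here. The *Pdha1* level had a log2 fold change of -0.02 ± 0.04 (SE; FDR = 0.944).

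*Pcp4* (ENSMUSG00000090223, chr16:96268806-96326997, plus strand) was at 71.7, 56.0, 48.5 and 47.3 CPM in hpCTL. In hp708 it was at 45.4, 71.6, 61.6 and 45.9 CPM. Each group held 1 library near 72 CPM, and the group means were 55.9 ± 11.3 and 56.1 ± 12.8 CPM (SD, n = 4 each). The log2 fold change was -0.00 ± 0.11 (SE; FDR = 0.997), and its sign changed between settings. *Pcp4* shares 243 exon bases, 21.7% of its exon length, with the gene model *Gm49948* on the same strand. *Gm49948* was counted at 30.1 to 50.1 CPM, so that the count of *Pcp4* depends on how shared reads were assigned.

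*Necab2* (ENSMUSG00000031837, chr8:120173399-120199379, plus strand) encodes a neuronal calcium-binding protein that interacts with the adenosine receptor encoded by *Adora2a* and with the metabotropic glutamate receptor mGluR5. It was at 123, 96.2, 77.2 and 89.4 CPM in hpCTL and at 98.0, 97.7, 82.7 and 77.3 CPM in hp708. All 4 hp708 values lay inside the hpCTL range, the extremes of which were both hpCTL animals. Its log2 fold change was -0.04 ± 0.06 (SE; FDR = 0.920).

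*Amigo2* (ENSMUSG00000048218, chr15:97142006-97145196, minus strand) encodes a leucine-rich repeat adhesion protein of the neuronal membrane. It was at 38.3, 29.7, 27.1 and 26.7 CPM in hpCTL and at 27.2, 34.9, 33.2 and 28.7 CPM in hp708. As for *Necab2*, every hp708 value lay inside the hpCTL range. The log2 fold change was 0.05 ± 0.07 (SE; FDR = 0.918), and 0.15 ± 0.06 (FDR = 0.407) without hp708 replicate 1. Its exons share 197 bases (6.17%) with *Pced1b* on the opposite strand, a gene at 5.69 to 7.84 CPM.

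*Cacng5* (ENSMUSG00000040373, chr11:107765431-107811030, minus strand) encodes γ-5, an auxiliary subunit of AMPA-type glutamate receptors. It was at 8.14, 8.48, 5.37 and 6.16 CPM in hpCTL. In hp708 it was at 7.00, 19.96, 10.3 and 12.2 CPM, so that 3 of the 4 hp708 animals were above every hpCTL animal and hp708 replicate 1 was among the controls. The means were 7.04 ± 1.51 CPM in hpCTL and 12.4 ± 5.50 CPM in hp708 (SD, n = 4 each). The log2 fold change was 0.54 ± 0.18 (SE; unadjusted p = 0.0175 by edgeR's quasi-likelihood test), and it did not pass the adjustment over all genes (FDR = 0.561). Without surrogate variables it was 0.81 ± 0.30 (FDR = 0.999).

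The value for *Cacng5* depended on single libraries. Without hp708 replicate 1, the animal with conflicting group entries, the groups no longer overlapped. The log2 fold change was then 1.02 ± 0.18, with an FDR of 0.0776, above the threshold. Without surrogate variables as well, the log2 fold change was 1.01 ± 0.26 with an FDR of 0.999. Without hp708 replicate 2, the highest library, it was 0.40 ± 0.22 (FDR = 0.525). Without hpCTL replicate 3, the lowest library, it was 0.33, the smallest value when a library was left out. The number of CA2 genes with an unadjusted p below 0.05 in either direction was 1 of 7 with all libraries, beside 7.70% of all tested genes. It was 4 of 7 without hp708 replicate 1 (*Cacng5*, *Rgs14*, *Ptpn5* and *Amigo2*, all higher in hp708), where the share of all tested genes was 12.2%. Without surrogate variables that library's removal left 1 of 7 (*Cacng5*), beside 3.42%, and the unadjusted p was 0.112 for *Rgs14*, 0.561 for *Amigo2* and 0.435 for *Ptpn5* (edgeR quasi-likelihood test). With surrogate variables, the number was 3 of 7 without hpCTL replicate 1, beside 9.67% of all genes, and 3 of 7 without hp708 replicate 3, beside 8.02%. Without surrogate variables it was 2 of 7 for each of these removals, beside 1.99% and 2.07%. Without hp708 replicate 2 it was 2 of 7 with surrogate variables, *Ptpn5* higher and *Pcp4* lower (log2 fold change -0.17), beside 12.0%. Without surrogate variables that removal gave 0 of 7, beside 3.21%. With surrogate variables it was 0 of 7 without hpCTL replicate 3, beside 2.98%, and 0 of 7 without hpCTL replicate 4, beside 6.09%. In none of these was a CA2 gene below an FDR of 0.05.

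**Figure D2:**
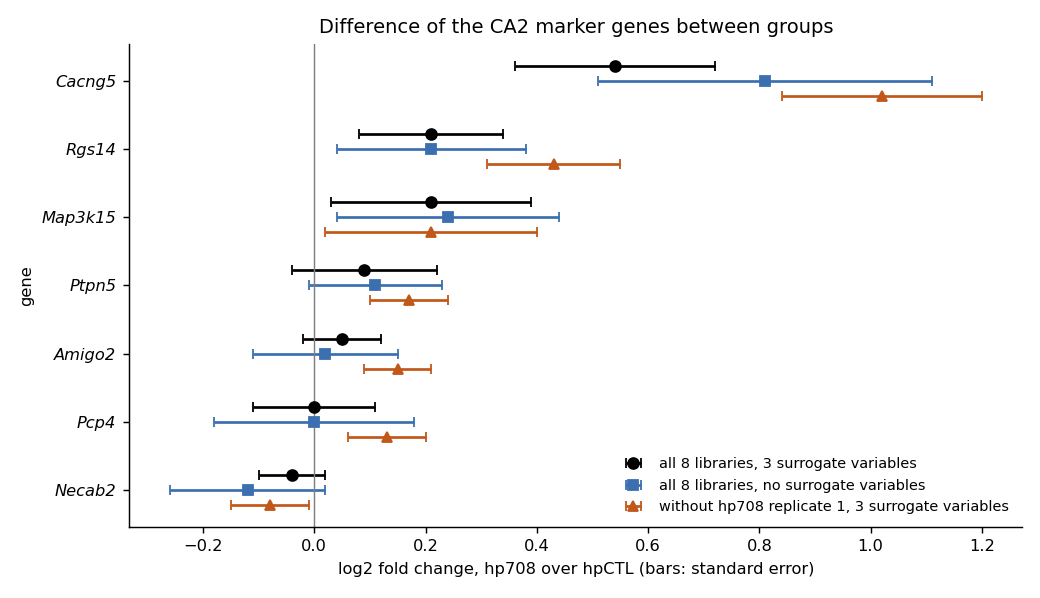
Log2 fold change, hp708 over hpCTL, of the 7 CA2 marker genes with its standard error, for all 8 libraries with surrogate variables, for all 8 without them, and without hp708 replicate 1. *Cacng5* has the highest value in each of the 3 fits (0.54, 0.81 and 1.02), *Necab2* the lowest (-0.04, -0.12 and -0.08), and no value passed an FDR of 0.05.

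Across animals, the correlations between pairs of CA2 genes ran from -0.56 to 0.95, and joint variation was not tested. Over the 8 libraries, 16 of the 21 pairs of genes had a positive correlation of log2 CPM, with a median Pearson r of 0.29. The median was -0.01 between these genes and all other tested genes. With the group means taken out, 14 of the 21 pairs were positive, with a median r of 0.32. These are descriptions over 8 libraries that share group, depth and dissection. *Amigo2* and *Pcp4* were the closest pair (r = 0.95, Spearman's rho = 0.81, and r = 0.89 without the 2 libraries farthest from the median of *Amigo2*). Within hpCTL their r was 0.99 and within hp708 it was 0.98, over 4 libraries each. *Pcp4* and *Ptpn5* were the most opposed pair (r = -0.56, rho = -0.67, and -0.69 without the 2 farthest libraries).

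In the library hpCTL replicate 1 several of the genes were high together. It held the highest level of *Amigo2*, *Necab2* and *Pcp4* and the second highest of *Rgs14*, which stood 0.31 to 0.42 above the mean of the gene on the log2 scale. *Rgs14* correlated with *Necab2* at r = 0.98 within hpCTL and at r = -0.89 within hp708, each over 4 libraries. Within hpCTL, replicate 1 was the highest for both genes. Within hp708, replicate 4 was the highest for *Rgs14* and the lowest for *Necab2*. The difference between the 2 correlations was not tested. The mean of the 7 genes, centred per gene, was lowest in hpCTL replicate 3 (-0.28) and highest in hp708 replicate 2 (0.30). In hp708 replicate 2, 6 of the 7 genes were above their own mean. In hpCTL replicate 3 and in hpCTL replicate 4 this held for 1 of the 7.

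**Figure D3:**
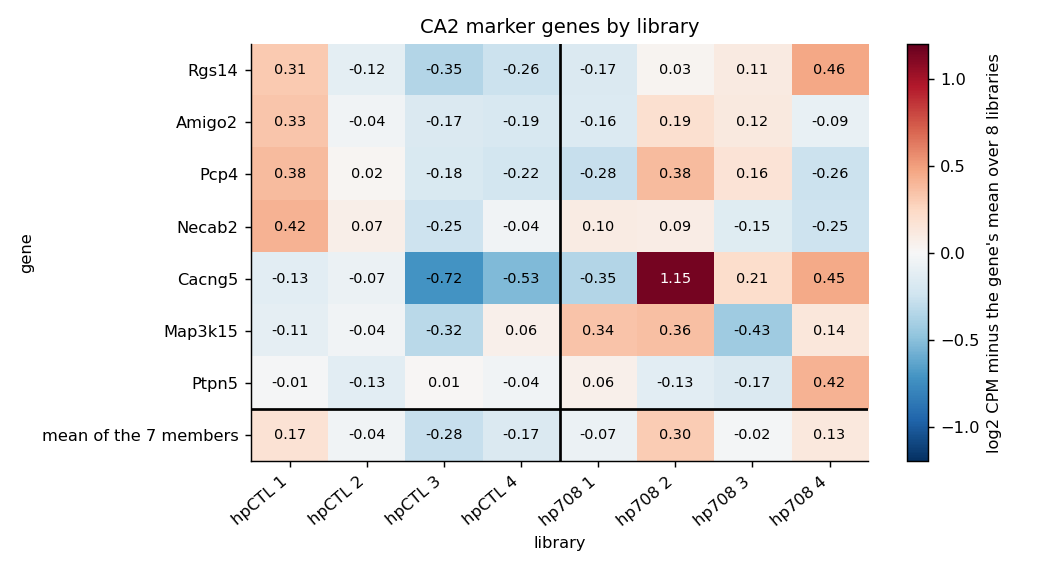
Log2 CPM of each CA2 marker gene (rows) in each library (columns) minus the mean of the gene over 8 libraries; red is higher and blue lower, and the last row is the mean of the 7 genes. *Rgs14*, *Amigo2*, *Pcp4* and *Necab2* are high together in hpCTL replicate 1, and *Cacng5* spans the widest range, from -0.72 in hpCTL replicate 3 to 1.15 in hp708 replicate 2.

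The genes most like each member were taken as those with the highest Pearson r of log2 CPM over the 8 libraries among all other tested genes. With so many genes to choose from and 8 libraries, high values are to be found for any gene. For *Rgs14* it was *Hpca* (r = 0.993, rho = 1.00), which encodes the neuronal calcium sensor hippocalcin, at a mean of 1496 CPM. *Hpca* had a log2 fold change of 0.21 (FDR = 0.712), the same to 2 decimals as *Rgs14*. For *Amigo2* it was *Fxr2* (r = 0.970), a relative of the fragile X protein, which was also the second for *Pcp4* (r = 0.968). The first for *Pcp4* was *Gm49948* (r = 0.987), with which it shares exons. For *Map3k15* it was *Ppp1r1b* (r = 0.977), which encodes the phosphatase inhibitor DARPP-32 and is one of the striatal markers used here. For *Cacng5* it was *Lrrc71* (r = 0.981), at a mean of 1.18 CPM, for *Necab2* it was *Dact3* (r = 0.984), and for *Ptpn5* it was *Megf11* (r = 0.971). Second came *Aopep* for *Rgs14*, *Srrd* for *Amigo2*, *Csnk2a2* for *Cacng5*, *Mtarc2* for *Necab2* and *Gpr83* for *Ptpn5*, with r of 0.943 to 0.989. For the mean of the 7 genes they were *Fzd10os*, *5033430I15Rik* and *Ubac2*, with r of 0.954 to 0.965.

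Another 9 genes associated with CA2 were read beside the members. They include the vasopressin receptor *Avpr1b*, the oxytocin receptor *Oxtr*, the mineralocorticoid receptor *Nr3c2*, the adenosine A1 receptor *Adora1*, *Actn2*, the perineuronal net component *Acan*, the growth factors *Fgf2* and *Ntf3*, and *Strip2*. Of these, 0 of 9 were below an FDR of 0.05 by edgeR and 0 of 9 by DESeq2, beside 0.0058% and 0.556% of all tested genes. At an unadjusted p below 0.05, 1 of 9 (*Strip2*) was higher in hp708, beside 2.82%. *Strip2* was at 35.8, 43.4, 35.4 and 45.6 CPM in hpCTL and at 48.5, 57.4, 40.4 and 53.4 CPM in hp708. It thus had 3 of 4 hp708 libraries above all hpCTL libraries, with a log2 fold change of 0.25 ± 0.09 (SE; FDR = 0.593). *Acan* had the lowest value of the list, a log2 fold change of -0.09 ± 0.14. *Nr3c2*, which in mice is needed for the CA2 character of these neurons, had a log2 fold change of 0.21 ± 0.12 (SE; FDR = 0.741), with 142 to 163 CPM in hpCTL and 146 to 248 CPM in hp708. *Avpr1b*, the CA2 receptor of social aggression, was near the lower limit of the assay at 0.287 to 1.18 CPM. The median log2 fold change of the 9 genes was 0.07. With hp708 replicate 1 left out, 3 of the 9 genes were higher at an unadjusted p below 0.05, where 12.2% of all tested genes were below it in either direction, and 0 were below an FDR of 0.05. Without surrogate variables as well it was 2 of 9, beside 3.42%. A seed match was found in *Nr3c2*, *Fgf2* and *Strip2*, 33.3% of the list, beside 26.5% of the tested genes with a 3'UTR.

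Relatives of the 7 genes in the same protein families numbered 16. Of these, 0 were below an FDR of 0.05 by edgeR, beside 0.0058% of all tested genes, and 0 by DESeq2, beside 0.556%. At an unadjusted p below 0.05, 0 were lower, beside 4.87% of all tested genes, and 1 was higher, beside 2.82%. That gene was *Cacng8*, another auxiliary subunit of AMPA receptors and a major one in hippocampus, with a log2 fold change of 0.21 ± 0.07 (SE; FDR = 0.549). It was at 64.0 to 75.3 CPM in hpCTL and at 78.0, 63.6, 86.9 and 97.9 CPM in hp708. The lowest value of the family list was that of the phosphatase *Ptpn7*, at -0.35 ± 0.27 and 0.571 to 4.14 CPM. The median over the 16 relatives was 0.01. With hp708 replicate 1 left out, 2 were higher and 2 lower at an unadjusted p below 0.05, where 12.2% of all tested genes were below it in either direction. Without surrogate variables as well it was 0 of 16, beside 3.42%. The other auxiliary subunits, *Cacng2*, *Cacng3*, *Cacng4* and *Cacng7*, had log2 fold changes of 0.10, -0.02, 0.16 and 0.01.

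Of 18 known partners and substrates of the encoded proteins, 0 were below an FDR of 0.05, beside 0.0058% of all tested genes. At an unadjusted p below 0.05, 2 were higher, beside 2.82%, and 0 were lower, beside 4.87%. Without hp708 replicate 1, 3 were higher and 1 lower at that p, beside 12.2% of all tested genes in either direction. Without surrogate variables as well it was 0 of 18, beside 3.42%. *Grin2b*, which encodes the NMDA receptor subunit GluN2B and is a substrate of STEP, had a log2 fold change of 0.21 ± 0.05 (SE; FDR = 0.382). It was at 363, 491, 534 and 516 CPM in hpCTL and at 530, 413, 633 and 665 CPM in hp708, with overlapping groups. It was below an FDR of 0.05 by DESeq2 (log2 fold change 0.22, FDR = 0.0224), as were 0.556% of all tested genes. *Ptk2b*, which encodes the tyrosine kinase PYK2, another substrate of STEP, had a log2 fold change of 0.12 ± 0.04 (SE; FDR = 0.592). *Adora2a*, the adenosine receptor that NECAB2 binds, had the lowest value at -0.37 ± 0.20 (SE; FDR = 0.723). The median over the 18 genes was 0.02. A seed match was found in 50% of these genes and in 37.5% of the family list, beside 26.5% of the tested genes with a 3'UTR. The 3'UTR of *Grin2b*, 18865 bases long, held 5 matches.

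Markers of the fields next to CA2 were read in the same libraries, since a dissected hippocampus can hold more or less of each. The mean log2 CPM of the CA2 genes was 4.86 to 5.32 in hpCTL and 5.08 to 5.44 in hp708, a difference of group means of 0.17. For the 4 markers of excitatory neurons, the class that CA2 pyramidal cells belong to, it was 9.07 to 9.16 in hpCTL and 9.08 to 9.56 in hp708, a difference of 0.15. All 4 were higher in hp708. Their median log2 fold change was 0.11, beside 0.09 for the CA2 genes. At an unadjusted p below 0.05, 1 of 4 was higher (*Camk2a*, 0.22 ± 0.06, FDR = 0.478), beside 2.82% of all tested genes. The median of the 4 markers was 0.24 without hp708 replicate 1, beside 0.17 for the CA2 genes. In that fit 3 of 4 were higher at an unadjusted p below 0.05, beside 12.2% of all tested genes in either direction. At an FDR below 0.05 it was 0 of 4, beside 0.321%. The part of excitatory neurons as a whole in the values of the CA2 genes was not tested. For the 5 CA3 markers the mean log2 CPM was 4.07 to 4.51 in hpCTL and 4.34 to 4.68 in hp708, a difference of 0.24. Of these 5 genes, 3 were higher in hp708 at an unadjusted p below 0.05 (*Bok*, *Iyd* and *Nectin3*), beside 2.82% of all tested genes. At an FDR below 0.05 it was 0 of 5, beside 0.0058%. Their summed level was 154 to 208 CPM in hpCTL and 176 to 223 CPM in hp708, and no CA3 marker was at 0. The CA3 markers were highest in hp708 replicate 2 and next in hpCTL replicate 1, which are also the libraries with the highest mean of the CA2 genes. Without hp708 replicate 1, *Bok* had a log2 fold change of 0.64 ± 0.12 (SE; FDR = 0.0855) and *Iyd* 0.90 ± 0.18 (SE; FDR = 0.0906). The median of the 5 genes was 0.18 there, beside 0.26 with all libraries. In that fit 3 of the 5 were higher at an unadjusted p below 0.05, beside 12.2% of all tested genes in either direction. Without surrogate variables as well it was 1 of 5, beside 3.42%. The part of the CA3 share in the values of *Cacng5* and *Rgs14* was not tested.

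The 5 CA1 markers differed by -0.07 (summed level 534 to 661 CPM in hpCTL and 542 to 610 CPM in hp708), with 0 of 5 at an unadjusted p below 0.05 (2 of 5, both lower, without hp708 replicate 1). The 5 dentate gyrus markers differed by 0.23, with 0 of 5 at an unadjusted p below 0.05. Without hp708 replicate 1 it was 3 of 5, all higher, and the median log2 fold change moved from 0.18 to 0.37. The summed level of these markers was 178 to 249 CPM in hpCTL and 183 to 336 CPM in hp708. Of all tested genes, 7.7% were below an unadjusted p of 0.05 in either direction with all libraries, and 12.2% without hp708 replicate 1. The 4 markers of the subiculum differed by -0.76, all 4 of them lower. Of these, 3 (*Tshz2*, *Nts* and *Slc17a6*) were lower at an unadjusted p below 0.05, beside 4.87% of all tested genes. Their summed level was 107 to 206 CPM in hpCTL and 99.0 to 179 CPM in hp708. The mean of the subiculum markers was 4.73 in hp708 replicate 1, inside the hpCTL range of 4.16 to 4.98, and 3.37 to 3.91 in the other 3 hp708 libraries. Without hp708 replicate 1, 2 of the 4 subiculum markers were lower at an FDR below 0.05, beside 0.321% of all tested genes in that fit. These were *Tshz2*, with a log2 fold change of -1.57 ± 0.14 (SE; FDR = 0.0239), and *Slc17a6*, with -1.25 ± 0.13 (SE; FDR = 0.0262). The median of the 4 genes moved from -0.74 to -1.39. Without surrogate variables, 0 of the 17425 genes tested without that library were below an FDR of 0.05, so both calls are lost there. For *Cacng5* too, hp708 replicate 1 lay inside the hpCTL range, as it did for *Rgs14*, *Amigo2* and *Necab2*. It lay above that range for *Map3k15* and *Ptpn5* and below it for *Pcp4*. Which of the group entries of this animal is right was not tested. The 5 choroid plexus markers ranged from a summed 51.7 to 4365 CPM over the libraries, with both groups spread widely. Their mean log2 CPM differed by 0.71, all 5 genes being higher in hp708 and 0 of 5 at an unadjusted p below 0.05. Their median log2 fold change of 0.33 turned to -0.36 without hp708 replicate 1. Of the markers read, *Pou4f1* of the habenula was at 0 in at least 1 library. The part of dissection in the values of the CA2 genes was not tested.

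**Figure D4:**
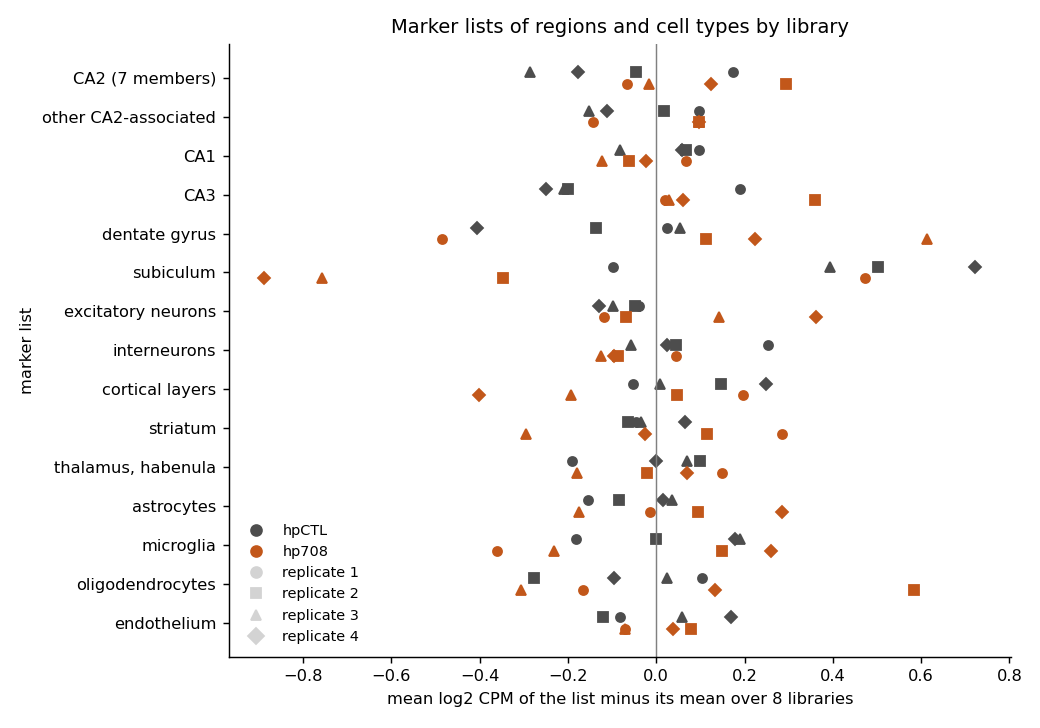
Mean log2 CPM of marker lists (rows) in each library minus the mean of the list over 8 libraries; grey is hpCTL, orange is hp708, and symbols mark replicates. The groups overlap for every list; subiculum markers lie lowest in hp708 replicates 2 to 4, and CA3 markers are highest in hp708 replicate 2 and hpCTL replicate 1.

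The remaining lists differed by at most 0.18. Markers of interneurons differed by -0.13, of cortical layers by -0.18, of striatum by 0.04, of thalamus and habenula by 0.01, of astrocytes by 0.09, of microglia by -0.09, of oligodendrocytes by 0.12 and of endothelium by -0.01 in mean log2 CPM. For each of these lists the groups overlapped. Among them 2 of 6 interneuron markers, 1 of 4 cortical markers and 3 of 5 microglial markers were lower in hp708 at an unadjusted p below 0.05. Of all tested genes, 4.87% were lower at that p. In these lists 0 genes were below an FDR of 0.05. Without hp708 replicate 1, the median log2 fold change of the microglial markers turned from -0.23 to 0.04, with 0 of 5 at an unadjusted p below 0.05, and it was -0.07 without surrogate variables. That of the cortical markers moved from -0.15 to -0.39 and that of the oligodendrocyte markers from 0.04 to 0.37 (4 of 5 higher at an unadjusted p below 0.05, beside 0 of 5 with all libraries), and that of the striatal markers turned from 0.10 to -0.01. Of the astrocyte markers, 2 of 5 were higher at an unadjusted p below 0.05 without that library, beside 0 of 5 with it. In that fit 12.2% of all tested genes were below that p in either direction. Without surrogate variables as well, 0 of 5 oligodendrocyte, 0 of 5 astrocyte and 0 of 4 excitatory markers were below that p, beside 3 of 4 of the subiculum and 3 of 5 of the dentate gyrus. It was 1 of 5 for CA3, 1 of 4 for cortical layers and 1 of 6 for interneurons, and 3.42% for all tested genes. The subiculum list was the one marker list with genes below an FDR of 0.05 when that library was left out and surrogate variables were kept.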

How the data were processed

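TruSeq mRNA libraries of the hippocampus were analysed, 4 of hpCTL and 4 of hp708 mice, each animal being 1 replicate. The authors mapped reads to GRCm39 with STAR 2.7.8a and deposited raw counts per gene from featureCounts 1.6.4, without normalization. Strand and multi-mapping settings are not given in the sources used here. Versions are from the submitters' processing notes. Columns were matched to samples by animal number. Genes were named from the GENCODE annotation of GRCm39 in a later release than the authors' (39641 of 40659 identifiers).

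From the deposited counts, genes kept by filterByExpr were tested with edgeR 4.0.16 (R 4.3.3), quasi-likelihood as in edgeR 3, TMM, 3 surrogate variables (sva 3.50.0) and Benjamini-Hochberg adjustment over all tested genes. Surrogate variables follow the study's methods, which name the likelihood ratio test of edgeR. The quasi-likelihood test used here follows a figure legend of the study, and the likelihood ratio test was run as an alternative. CPM used TMM library sizes, and log2 CPM a prior count of 2. Standard errors were computed as the fold change (log2) over the root of the F statistic. No 2 libraries of a group agreed within sampling noise (chi-square per degree of freedom 10.0 to 46.2 over genes). Functions were tested on simulated data. Both seed matches, AGCTCCT and GCTCCTA, were searched in the longest 3'UTR per gene.

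The members and lists were chosen with earlier results of these data known. The genes named are the members, the list genes with the lowest p or the extreme log2 fold changes, defining markers beside a result, and for each member the 2 genes most alike over the 8 libraries (3 for the mean). *Nr3c2*, *Avpr1b* and the other *Cacng* genes were named in addition after their values were seen. A gene that this rule names is not reported here. Alternatives changed the surrogate variables, test, tool (DESeq2 1.42.0), size factors, filter, replicate block and libraries.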

Additional observations from a re-analysis of the deposited data

Results flagged for a closer look

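In groups of 4 libraries, 3 of the 52 groups looked at (the 7 genes, 18 marker lists and the total count, each in both groups) held 1 library that stood far from its other 3. Chance alone gives 2.6 such groups, at 1 in 20. The mean of the 9 other CA2-associated genes was 3.85 log2 CPM in hp708 replicate 1 and 4.09 in each of the other 3 hp708 libraries. The mean of the CA3 markers was 4.51 in hpCTL replicate 1, beside 4.07 to 4.12 in the other hpCTL libraries. It was 4.68 in hp708 replicate 2, beside 4.34 to 4.38 in the other hp708 libraries. None of the 7 CA2 genes had such a library by itself.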

How the results depend on the processing

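Over the 23 alternatives, 0 of the 7 CA2 genes passed an FDR of 0.05, while the number of all tested genes that did ranged from 0 (no surrogate variables) to 127 (likelihood ratio test), with 1 as reported, 96 by DESeq2, 12 without the filter, 3 by the quasi-likelihood test of edgeR 4 and 56 without hp708 replicate 1. Of 161 single-gene values, 142 kept direction and side of the threshold and 19 changed sign, to values of at most 0.15 in size. *Amigo2* was at -0.01 without the filter. *Pcp4* was at 0.00 without surrogate variables and at 0.01 by DESeq2 and with its size factors. With a library left out, *Amigo2* ran from -0.03 to 0.15, *Necab2* from -0.08 to 0.02 and *Pcp4* from -0.17 to 0.13. With a library left out and no surrogate variables, the changed values were -0.04, -0.03, -0.03 and -0.01 for *Amigo2*, 0.03 for *Necab2*, 0.01, 0.09, 0.10 and 0.15 for *Pcp4* and -0.03 for *Ptpn5*. *Cacng5*, *Rgs14* and *Map3k15* stayed above 0 throughout, *Cacng5* at 0.33 to 1.02. The median over the 7 genes was 0.06 to 0.25. Among family and partner genes 1 (*Grin2b*) passed by DESeq2, and the CA2 genes without overlap between groups numbered 0 to 1 (*Cacng5* without hp708 replicate 1, beside 4.92% of all tested genes, and *Map3k15* without hp708 replicate 3, beside 3.45%). The cause was not tested. Replicate numbers did not pair the animals (correlation of same-numbered deviations -0.04 to 0.02). With a replicate block the median was 0.09 and *Cacng5* was at 0.74, and none of the CA2, other CA2-associated, family and partner genes passed an FDR of 0.05. The lowest counts, 56 for *Map3k15*, limit what could be seen there.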
